A study of Schizosaccharomyces pombe with 2 samples.

Results

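Small nucleolar RNA (snoRNA) and small nuclear RNA (snRNA) genes of fission yeast were examined in transcript models built from PacBio Iso-Seq long reads, to ask in which longer transcripts these short RNAs lie. The members were the genes typed as snoRNA or snRNA in the RefSeq annotation of ASM294v3 on chromosomes I, II and III, which gave 72 of 12606 annotated genes, 66 snoRNA and 6 snRNA entries. A model was taken when it lay on the strand of such a gene and overlapped it by 1 nt or more. The pool library was labelled as WT cells, h+ ade6-M216 ura4-D18 leu1-32, together with cells of the same markers that also carry hrp1del::kanMX hrp3del, that is without the chromatin remodelers Hrp1 and Hrp3, pooled from untreated cultures and from cultures given caffeine at 14 mM or clotrimazole at 200 ng/ml. The WT library was made from untreated h+ ade6-M216 ura4-D18 leu1-32 cells, and all cultures were grown in rich medium (YES) at 32 °C to mid-log phase. Each library stood alone without a replicate and came from its own sequencing run, although both labels name batch 1, so genotype, treatment, run and depth cannot be told apart and no p-value was computed between the libraries. The pool also held WT cells, so that models of *hrp1* or *hrp3* in it are no check of the deletions.

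snoRNAs guide the chemical modification of other RNAs, box C/D snoRNAs 2′-O-methylation and box H/ACA snoRNAs the change of uridine to pseudouridine, and a few, such as U3, U14 and U17, take part in cutting the ribosomal RNA precursor. The snRNAs U1, U2, U4, U5 and U6 are the RNA core of the spliceosome. The mature forms are short and carry no poly(A) tail. They are released from longer precursors, which can be transcripts of their own, transcripts with several snoRNAs in a row, or introns of protein-coding genes, and in fission yeast 3′-extended polyadenylated precursors are known as substrates of the nuclear exosome with the poly(A)-binding protein Pab2.

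The pool file held 69996 models and the WT file 26120, of which 69823 and 26057 lay on the 3 chromosomes. No read numbers came with the models, so the depth behind each model is unknown and a model counts as present or absent, not as an amount. The shortest model measured 178 nt in the pool and 428 nt in WT, and 51 of the 72 members were shorter than the pool value and 64 shorter than the WT value. Most mature RNAs were thus shorter than any model seen. Iso-Seq cDNA is usually primed on the poly(A) tail, but how it was primed here is not given in the sources used here. The annotation gave 19 members as box H/ACA snoRNAs (median length 168 nt), 40 as other snoRNAs (median 86 nt), 6 as snRNAs (median 135.5 nt) and 7 as primary transcripts of snoRNAs (281 to 1152 nt).

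In the pool, 53 of the 72 members had a model (73.6%, exact Clopper-Pearson 95% interval 61.9 to 83.3), and in WT 20 of 72 did (27.8%, interval 17.9 to 39.6). Over the 12534 other annotated genes the share was 76.2% in the pool and 45% in WT. Among the 171 tRNA genes, another class of short RNAs without a tail, 5.85% had a model in the pool and 1.75% in WT. Among the 7133 lncRNA genes, 62% had a model in the pool and 13% in WT. All 20 members seen in WT were also seen in the pool, 33 (45.8%) had models in the pool alone, against 31.3% of the other genes as a whole, 49.3% of lncRNA genes and 4.09% of tRNA genes, and 19 had a model in neither library. These intervals cover counting error over genes only. The pool held 2.68 times as many models as WT in all, and 2.93 times as many distinct models over members, 305 against 104.

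A model can carry the small RNA in an exon or remove it with an intron. In the pool, 45 members (62.5%) were covered from end to end by the exons of at least 1 model and 22 (30.6%) lay wholly in an intron of at least 1 model. In WT these numbers were 17 (23.6%) and 13 (18.1%). Among all other genes, 40.7% in the pool and 17.9% in WT were covered from end to end, but those genes differ from the members in length, which was not matched. Of the distinct models over members, 227 of 305 in the pool (74.4%) and 98 of 104 in WT (94.2%) touched a coding gene's exon on the same strand, against 82.4% of all models in the pool and 93.5% in WT. Without such an exon, 24 members were covered from end to end in the pool and 2 in WT. This count, and that of genes wholly in an intron, was not made over other genes. By models of any kind, 24.6% of lncRNA genes in the pool and 1.93% in WT were covered from end to end. For tRNA genes these shares were 2.92% and 1.17%.

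**Figure D1:**
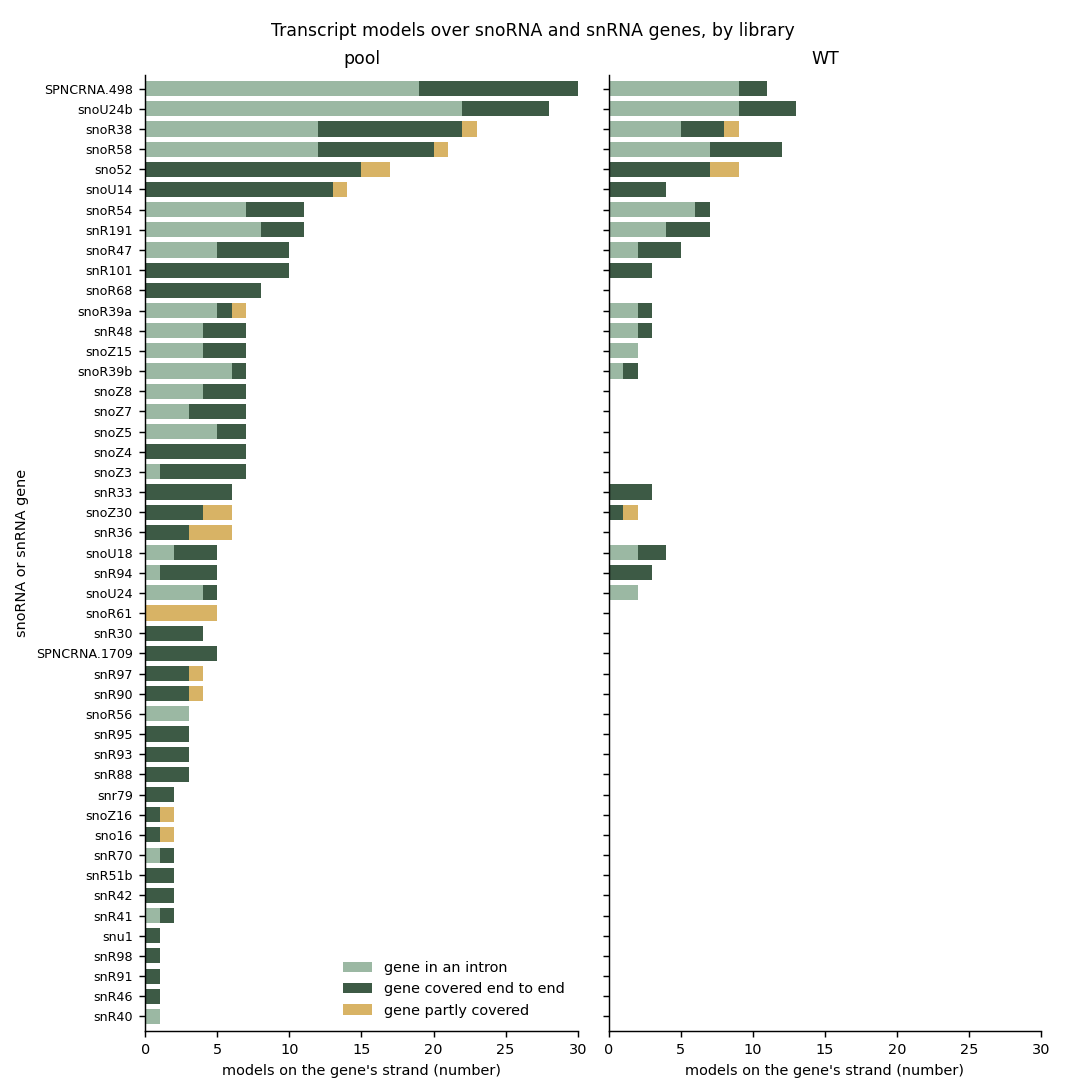
Number of transcript models on the strand of each snoRNA or snRNA gene that had any, in the pool (left) and in WT (right), split by whether the gene lay in an intron, was covered by exons or was covered in part. SPNCRNA.498, in an intron of *ipa1*, had most in the pool (30) and snoU24b in *cpc2* had most in WT (13), and 1 pool model with a gap of 110113 nt over snR30 is not drawn.

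The spliceosomal snRNAs were nearly absent. U2 (snu2), U4 (snu4), U5 (snu5) and U6 (snu6) had 0 models in the pool and 0 in WT on their strand, and 0 models on the other strand in either library. U1 (snu1) had 1 model in the pool and 0 in WT. That pool model was 2230 nt long, ran without an intron from the end of *slm9* through *gpt2*, which ends 211 nt before U1, and stopped 8 nt past the annotated 3′ end of U1. The sixth entry typed as snRNA, snR48, is annotated as a small non-coding RNA in an intron of *rps3*, a ribosomal protein gene, and behaved like the intron-encoded snoRNAs below. U3 (snu3) and its second copy U3B (snu32), which guide the folding and cutting of the ribosomal RNA precursor, also had 0 models in both libraries. The other 13 members without a model in either library were the H/ACA snoRNAs snR96, snR3, snR92, snR5, sno20, sno12 and snR10, the snoRNAs snoR02, snr62, snoR69b, snoR54b and snoR69, and the primary transcript SPNCRNA.1394.

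All 13 members annotated inside introns of protein-coding genes had models in both libraries, and in both libraries each of the 13 introns was removed in at least 1 model. Most other introns of coding genes were removed too. Of 5172, models spanned 5120 in the pool and 4663 in WT, and 5035 and 4554 were removed in at least 1 model. The hosts code for ribosomal proteins and ribosome-bound factors (*rps3*, *rpl701*, *cpc2*), ribosome assembly factors (*rlp7*, *nog2*), a translation elongation factor subunit (SPAC29A4.02C), purine synthesis enzymes (*ade4*, *gua1*) and others (*spt20*, *ipa1*, *pfd1*, *ero11*, *fta3*). Their 13 introns were 157 to 481 nt long with a median of 253 nt, while the median of the 5172 other introns of coding genes was 56 nt. An intron that holds a whole small RNA gene must be longer than that gene, so part of this difference follows from the choice of introns. The snoRNA began 24 to 266 nt after the 5′ splice site (median 56) and ended 49 to 258 nt before the 3′ splice site (median 88). The intron of *cpc2*, which codes for the ribosomal protein RACK1 and had the most pool models with the intron removed, shows the layout, with the splice site bases and snoU24b in capitals.
cpc2 intron with snoU24b, chrI:2440254-2440506, plus strand: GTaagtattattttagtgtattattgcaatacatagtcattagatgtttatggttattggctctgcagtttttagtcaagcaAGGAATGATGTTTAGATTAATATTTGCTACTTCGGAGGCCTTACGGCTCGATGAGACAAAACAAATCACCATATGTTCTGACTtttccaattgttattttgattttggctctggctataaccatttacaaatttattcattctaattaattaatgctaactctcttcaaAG

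The same introns also stayed in models. snoU24b was spliced out in 22 models and retained with the whole intron in 5 in the pool, against 9 and 4 in WT. In *ipa1*, a gene for an mRNA processing protein, the intron with the candidate snoRNA SPNCRNA.498 was removed in 19 pool models and retained in 9, against 9 and 2 in WT. In *fta3*, a kinetochore gene, the intron with snoR47 was removed in 5 and retained in 5 pool models, against 2 and 3 in WT, so that retained models made up 50% in the pool and 60% in WT. snoU24 in *spt20*, a gene of the SAGA complex, was the member with 0 retained introns in both libraries, over 4 pool and 2 WT models. For snR48 in *rps3* the counts were 4 removed and 2 retained in the pool, against 2 and 1 in WT. snR191 in *nog2* had 8 removed and 2 retained in the pool, against 4 and 2 in WT. snoR54 in *gua1* had 7 and 3 in the pool, against 6 and 1 in WT, and snoR38 in SPAC29A4.02C had 12 and 4, against 5 and 2. The 4 remaining members, snoR39a in *rlp7*, snoZ15 in *pfd1*, snoR39b in *rpl701* and snoU18 in *ero11*, had 1 to 3 retained models each in the pool and 0 or 1 in WT.

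Over the 13 introns together, 40 of 158 pool models retained the intron (25.3%) and 18 of 73 WT models did (24.7%). The share over all other introns of coding genes was 19% in the pool (12826 of 67485) and 11.2% in WT (2858 of 25590). In this and the following sets a model counted once for each intron it spanned. Over the 501 other introns within the same length range it was 22.7% in the pool and 15% in WT, and over the 6 other introns of the same host genes 21.2% in the pool, 14 of 66 models, and 3.85% in WT, 1 of 26. The median over single introns was 22.2% for the 13 in the pool and 28.6% in WT, against 20% and 9.09% for introns of similar length. Models of 1 gene are not independent samples, so these shares are descriptions of the libraries and no test was made on them.

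**Figure D2:**
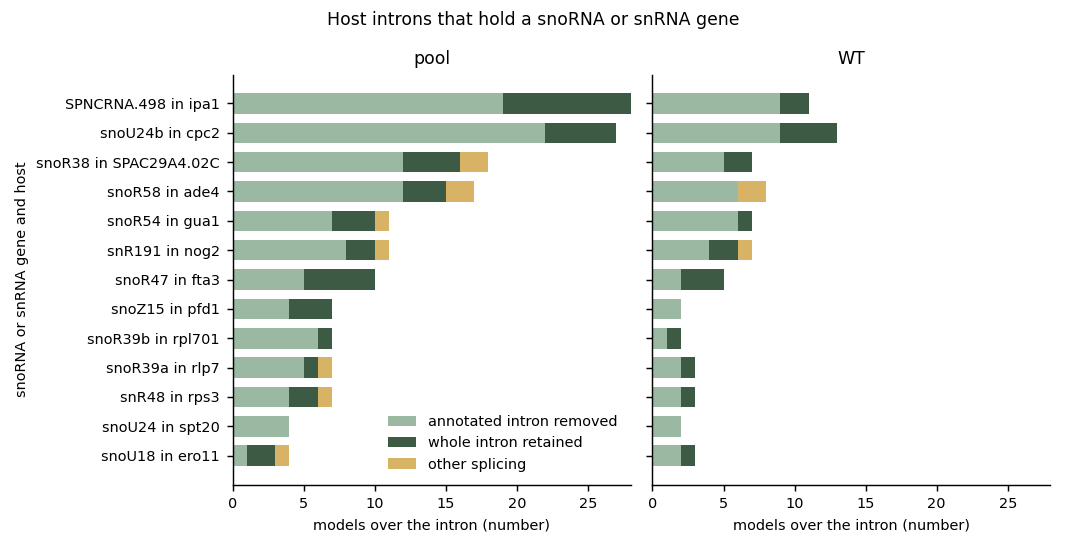
Models that span each of the 13 annotated host introns, by gene and host, in the pool (left) and in WT (right): the annotated intron removed, the whole intron retained, or spliced in another way. Retained models occur beside spliced ones for 12 of the 13 introns in the pool and 10 of 13 in WT. Among 501 other introns of coding genes within the same length range, 420 in the pool and 221 in WT had both forms.

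snoR58 in *ade4*, which codes for the first enzyme of purine synthesis, had models that began at 2 separate places. Of its 21 pool models, 17 started 115 to 149 nt before snoR58, near the annotated start of *ade4* at 121 nt, and the other 4 started 1 nt before the first base of snoR58. Of the 12 WT models, 8 started 121 to 126 nt before it and 4 started at the same base, 1 nt before snoR58. No model began between these places in either library. The collapsing step can join 5′ ends up to 100 nt apart and shorter models to longer ones, so starts in between may have been lost. The models that began at the snoRNA ran on into *ade4*, some with a stretch removed as given below. They ended 1898 to 2128 nt past the 3′ end of snoR58 in the pool and 1926 to 2235 nt past it in WT. Of the models that began upstream, 12 of 17 in the pool and 7 of 8 in WT had snoR58 in an intron. A shorter intron of 37 nt that ends just before snoR58 was used in 2 pool models and 1 WT model that began upstream. Among the models that began at the snoRNA, 2 in the pool and 1 in WT removed a 69-nt intron after it. In both cases snoR58 lay inside an exon. A further 1 pool model that began at the snoRNA removed 41 nt inside snoR58 and so covered it in part. The stretch from the 5′ splice site (capitals) to the end of snoR58 (capitals) is given here.
ade4 intron to the end of snoR58, chrI:5366223-5366339, minus strand: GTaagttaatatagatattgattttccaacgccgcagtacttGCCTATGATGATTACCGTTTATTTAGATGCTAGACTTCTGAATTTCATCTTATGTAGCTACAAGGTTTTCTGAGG

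Starts inside a host intron were seen at snoR58 and in *ipa1* alone. They made up 5 of 174 models that touch the 13 introns in the pool, of which 1 lay in *ipa1*, and 4 of 81 in WT. At other introns the shares were 0.411% of 68140 in the pool and 0.21% of 25714 in WT, with a model counted once for each intron. Ends inside the host intron made up 11 of 174 in the pool and 4 of 81 in WT, against 0.55% and 0.272% at the other introns. The host introns were longer, with a median of 253 nt against 56 nt for the other introns. Length was not matched for these shares of starts and ends, and a longer intron offers more room for both. Most of the ends inside host introns belonged to snoR38, in the gene of the elongation factor subunit, where 7 pool models and 3 WT models ended inside the intron. In the pool 4 of the 7 ended 13 to 103 nt past snoR38, and the WT model that passed the snoRNA ended 83 nt past it.

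Introns that hold a snoRNA were also found where the annotation has none. In the pool, 9 members outside coding-gene introns lay in an intron of a model: snoZ8, snoZ7, snoZ5, snoZ3, snR41, snR70, snoR56, snR40 and the H/ACA snoRNA snR94. In WT there were 0 of 59 such members, but only 7 of the 59 had any WT model. Of the 9 named here only snR94 had WT models, so for the others splicing could not be seen in WT. Together with variant introns at snoR58 (in WT) and snoU18 (in the pool), the introns around these 9 members made 12 introns of 156 to 425 nt (median 188). All 12 began with GT and ended with AG. Of the 12, 11 began with GTAAG or GTATG and 8 held the branch site letters CTAAC, or that word with T as its last base or G as its middle base, within their last 40 nt. For the 13 annotated host introns the counts were 13 and 12, and over all other introns of coding genes the shares were 71.2% and 74.8%. A match of such letters is a description of the sequence.

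The snoZ transcript, which carries snoZ8, snoZ7, snoZ5, snoZ4 and snoZ3 in a row, had the most such introns. It had 7 models in the pool and 0 in WT. RefSeq gives it as an unspliced lncRNA of 1901 nt, and all 7 models began within 8 nt of that annotated start and ended 705 to 711 nt before the annotated end, soon after snoZ3. They differed in which introns were removed. The longest, of 1189 nt, had no intron and held all 5 snoRNAs, and the shortest, of 509 nt, had 4 introns and kept only snoZ4. snoZ5 was removed in 5 of the 7 models, snoZ8 in 4, snoZ7 in 3 (in 2 with an intron of 183 nt and in 1 with an intron of 196 nt from the same 5′ splice site) and snoZ3 in 1. snoZ4 lay in an exon in all 7. Each intron held exactly 1 snoRNA, set 24 to 33 nt after the 5′ splice site. For each of the 4 removed snoRNAs 1 intron is printed with splice site bases and snoRNA in capitals, and snoZ4 with its D box CTGA in capitals. For snoZ7 it is the 196-nt form seen in 1 model.
snoZ8 intron, chrI:526693-526854, plus strand: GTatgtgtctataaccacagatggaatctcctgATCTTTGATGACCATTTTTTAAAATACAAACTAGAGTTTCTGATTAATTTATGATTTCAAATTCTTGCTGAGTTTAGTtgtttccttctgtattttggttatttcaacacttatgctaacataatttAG
snoZ7 intron, chrI:526905-527100, plus strand: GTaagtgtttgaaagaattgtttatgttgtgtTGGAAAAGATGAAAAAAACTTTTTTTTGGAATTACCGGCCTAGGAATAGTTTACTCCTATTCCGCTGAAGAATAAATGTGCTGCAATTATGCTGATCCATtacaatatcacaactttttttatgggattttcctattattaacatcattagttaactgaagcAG
snoZ5 intron, chrI:527167-527322, plus strand: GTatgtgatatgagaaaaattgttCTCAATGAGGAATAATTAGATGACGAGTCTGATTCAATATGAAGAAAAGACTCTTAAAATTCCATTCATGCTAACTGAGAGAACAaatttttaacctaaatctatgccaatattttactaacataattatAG
snoZ3 intron, chrI:527592-527768, plus strand: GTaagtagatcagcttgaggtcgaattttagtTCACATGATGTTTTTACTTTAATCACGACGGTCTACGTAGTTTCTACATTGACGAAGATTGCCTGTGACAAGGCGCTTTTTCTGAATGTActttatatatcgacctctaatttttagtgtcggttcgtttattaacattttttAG
snoZ4, chrI:527387-527474, plus strand: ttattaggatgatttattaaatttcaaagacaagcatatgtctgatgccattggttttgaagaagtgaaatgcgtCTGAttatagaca

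**Figure D3:**
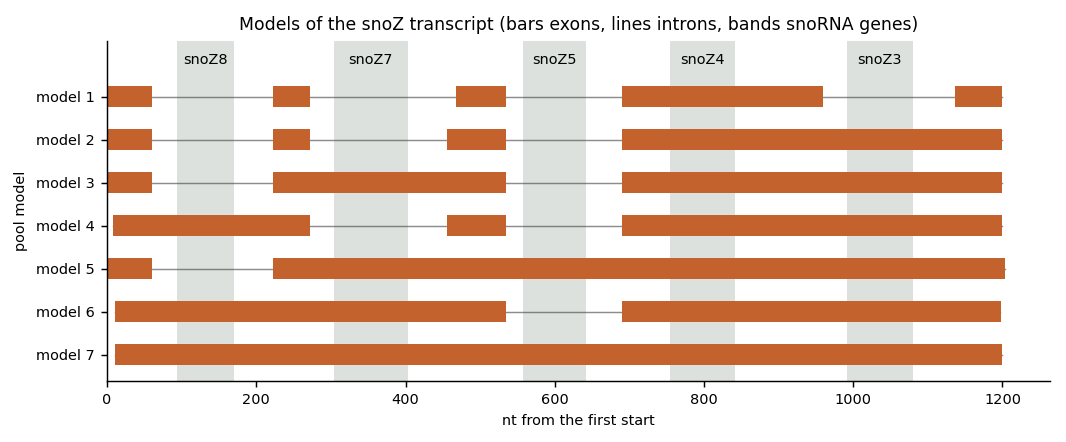
The 7 pool models of the snoZ transcript, with exons as bars and introns as lines, in nt from the first start, and the 5 snoRNA genes as bands. Bars pass through the snoZ4 band in all 7 models, while the other bands are crossed by an intron line in 1 to 5 of them, and WT had 0 models here.

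The second transcript with several snoRNAs, the primary transcript of snR41, snR70 and snR51b (SPNCRNA.723), had 2 pool models and 0 in WT. Both started at the same base, 141 nt before snR41, and ended 80 and 81 nt past snR51b. The first was unspliced, 783 nt long, and held all 3 snoRNAs. The second, of 383 nt, had lost snR41 with an intron of 193 nt and snR70 with an intron of 208 nt and kept snR51b, the last in the row. In all, 9 of 305 distinct pool models and 0 of 104 WT models spanned more than 1 member, primary transcripts left aside.

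snoR56 lay in an intron of 213 nt in all 3 of its pool models, which had no coding exon, began 100 to 111 nt before the snoRNA and ended 1538 to 2370 nt past it, and it had 0 models in WT. snR40 was removed in its single pool model, which began 1130 nt before it and spliced out 182 nt. That model touched SPAC13C5.04, which ends 187 nt before snR40, but met only the end of *tht1*, which lies 1098 nt before snR40. snR94 was kept in an exon in 4 pool models and 3 WT models that extend *skb5* and was removed in 1 further pool model. The intron around snoR56 is shown with splice site bases and gene in capitals.
snoR56 intron, chrI:5148384-5148596, minus strand: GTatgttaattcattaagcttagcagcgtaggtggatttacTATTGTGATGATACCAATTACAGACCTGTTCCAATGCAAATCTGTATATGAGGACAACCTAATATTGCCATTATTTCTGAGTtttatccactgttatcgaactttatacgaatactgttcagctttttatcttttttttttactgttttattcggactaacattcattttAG

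In snoR61, models removed either of 2 introns that meet. The annotation gives it 2 exons with a gap of 336 nt, and none of its 5 pool models used that gap. In 3 models the first 172 nt of it were removed, in 1 model the remaining 164 nt, and 1 model kept both, while WT had 0 models. The first intron ends at the base before the second begins. All 5 models began 23 nt inside the annotated 5′ end, at the same base. The 172-nt intron held TGATGA and CTGA, the letters of the C and D boxes of box C/D snoRNAs, which are in capitals in the sequence, TGATGA occurring as a pair that overlaps. The 164-nt intron held neither and is printed in lower case.
snoR61 first intron, chrII:3874626-3874797, minus strand: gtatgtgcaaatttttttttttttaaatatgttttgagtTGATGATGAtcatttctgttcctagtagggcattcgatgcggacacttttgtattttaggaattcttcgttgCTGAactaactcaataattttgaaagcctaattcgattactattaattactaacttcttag
snoR61 second intron, chrII:3874462-3874625, minus strand: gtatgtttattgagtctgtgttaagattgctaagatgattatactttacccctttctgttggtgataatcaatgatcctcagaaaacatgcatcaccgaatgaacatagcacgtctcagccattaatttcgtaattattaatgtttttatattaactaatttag

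As a check of the annotated names, TGATGA was looked for in the first 15 nt and CTGA in the last 15 nt of the gene. Among the 40 other snoRNAs 30 held CTGA, 17 held TGATGA and 16 held both, and among the 19 H/ACA snoRNAs 2, 0 and 0 did. Of genome windows of the same median length 3.94%, 0.522% and 0.027% did. ACA at 3 nt from the 3′ end, the mark of H/ACA snoRNAs, was found in 9 of the 19, against 1.71% of windows. The members were read on their own strand and the windows on both strands, and a member without the letters in these windows may hold them elsewhere or in another form.

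snoU14, a box C/D snoRNA that binds the precursor of 18S ribosomal RNA, and snoZ30 were the only members that WT models covered without a coding exon. snoU14 had 14 models in the pool and 4 in WT. Of these, 13 pool models and all 4 WT models started at the same base, 956 nt before snoU14, which lies 3 nt before the annotated start of mamRNA, a lncRNA bound by the meiotic regulators Mmi1 and Mei2, and the last pool model started 858 nt before snoU14. RefSeq ends the 2 mamRNA transcripts 441 and 274 nt before snoU14. Of 23 pool models over mamRNA 14 reached snoU14, and of 4 WT models all 4 did. An intron of 227 nt upstream of snoU14, which runs past both annotated mamRNA ends, was removed in 5 of the 14 pool models and in 1 of the 4 WT models. No model removed snoU14.

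The 3′ ends past snoU14 were spread. In the pool they lay 14, 17, 51, 53, 97, 127, 128, 160, 220, 231, 239, 318 and 347 nt past its end, and in 1 model 96 nt before it, inside the gene. In WT they lay 13, 51, 52 and 187 nt past its end. The WT ends at 13, 51 and 52 nt each had a pool model within 1 nt. In the stretch that holds the nearest ends, snoU14 is in capitals and is followed by 60 nt in lower case with a long run of T.
snoU14 and the next 60 nt, chrII:1308634-1308805, plus strand: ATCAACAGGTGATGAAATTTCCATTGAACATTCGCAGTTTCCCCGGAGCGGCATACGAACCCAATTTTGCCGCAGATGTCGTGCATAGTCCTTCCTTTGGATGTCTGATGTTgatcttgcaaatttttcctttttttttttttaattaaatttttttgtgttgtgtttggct

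**Figure D4:**
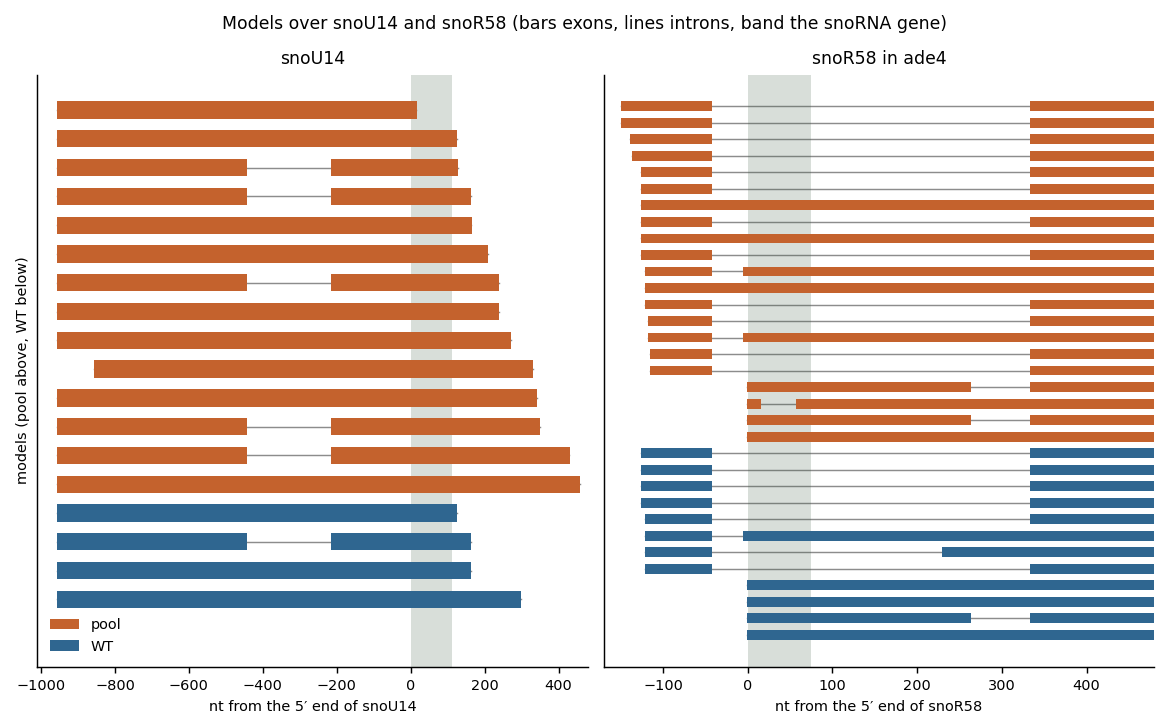
Models over snoU14 (left) and the first part of those over snoR58 (right), pool above and WT below, in nt from the 5′ end of the snoRNA, with exons as bars, introns as lines and the snoRNA as a band. Nearly all snoU14 models begin at 956 nt upstream in both libraries, and 4 pool and 4 WT models begin at the edge of the snoR58 band.

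Models that began at the annotated 5′ end were found for 7 members in the pool and 2 in WT. With the distance set at 2 nt or less after the values had been seen, 24 of the 301 distinct pool models over members other than primary transcripts and 5 of 104 WT models started at such an end. At the 3′ end the numbers were 2 and 0. How often models of other genes start or end this close to an annotated end was not computed, so these counts have no background. The 5′ matches were snoR58 (above), snR30, snR36, snR98, snR90, snoR68 and snoZ30 in the pool, and snoR58 and snoZ30 in WT. The collapsing step joins a model to a longer one that shares its 3′ end, so starts of this kind can be undercounted.

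snR30 is the H/ACA RNA also called U17 that is needed to process 18S ribosomal RNA, and was counted with the other snoRNAs because its annotated product gives no class. It had 4 such models in the pool, each with its first base on that of snR30 and ends 69, 278, 428 and 605 nt past the gene. WT had 0. snoR68 had 8 pool models, all starting 2 nt before it, and ends 183 to 1432 nt past it, of which 3 ran on into *cho2*, which begins 1094 nt downstream. WT had 0. snR36 had 6 pool models, 3 of them starting at its first or second base, 2 at 151 and 152 nt upstream and 1 at 75 nt inside the gene, and all ended far downstream, 784 to 1977 nt past the gene. snR98 had 1, which started on its first base and ended 283 nt past it, where 15 of the next 20 genome bases were A.

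snR90, an H/ACA snoRNA annotated with an intron, had 4 pool models, all spliced. Of these, 2 began 1 nt before the gene and ended 1866 and 1927 nt past it, and 2 began 177 and 182 nt before it and ended at its last base and 41 nt inside it. snoZ30 had 6 models in the pool and 2 in WT. In the pool 4 began 309 nt before the gene and 2 at its second base, and in WT 1 and 1 did. All ended 441 to 705 nt past snoZ30 in the pool, and 663 and 705 nt in WT. The members with such starts are shown with the 20 nt before the gene in lower case and its first 30 nt in capitals, since the break falls where the models begin.
snR30, chrI:3394855-3394904, plus strand: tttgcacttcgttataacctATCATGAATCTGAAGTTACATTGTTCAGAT
snoR68, chrII:3944553-3944602, plus strand: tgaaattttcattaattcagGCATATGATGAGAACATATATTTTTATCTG
snR36, chrII:1957420-1957469, minus strand: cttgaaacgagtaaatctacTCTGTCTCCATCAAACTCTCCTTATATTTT
snR98, chrI:2330618-2330667, minus strand: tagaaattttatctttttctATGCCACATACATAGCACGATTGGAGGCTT
snR90, chrI:4937365-4937414, minus strand: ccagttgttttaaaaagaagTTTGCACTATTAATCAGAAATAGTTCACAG
snoZ30, chrII:2044391-2044440, plus strand: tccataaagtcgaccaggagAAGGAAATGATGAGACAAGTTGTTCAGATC
The last 30 nt of snR30 and the 80 nt after them, in which its first model ended at 69 nt, follow with the ACA box in capitals.
snR30 3′ end, chrI:3395171-3395280, plus strand: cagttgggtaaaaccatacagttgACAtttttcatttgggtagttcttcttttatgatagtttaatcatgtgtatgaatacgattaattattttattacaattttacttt

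Over all models without a coding exon, each counted once against the first and last member it held, the 3′ side was extended by 10 nt or more in 64 of 71 pool models (90.1%) and in 6 of 6 WT models. The median extension past the 3′ end was 220 nt in the pool (quartiles 81.5 and 672.5) and 119.5 nt in WT. At the 5′ side 48 of 71 pool models (67.6%) and 5 of 6 WT models were extended, with medians of 215 nt and 956 nt. Of the 71 pool models 17 started within 2 nt of the 5′ end, and 0 of 71 in the pool and 0 of 6 in WT had both ends within 10 nt of the member. The shortest model measured 178 nt in the pool and 428 nt in WT, so for a much shorter member the last result was fixed in advance. For such a member some extension also followed from model length alone, and the same shares were not computed over other genes. Among members with at least 3 such models, both libraries together, snR36 had the largest median 3′ extension (1628.5 nt), followed by snoZ8 (1029 nt), snR90 (933 nt), snoR68 (928 nt) and snoZ7 (796 nt), and the values of snoZ8 and snoZ7 run over the rest of their cluster.

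**Figure D5:**
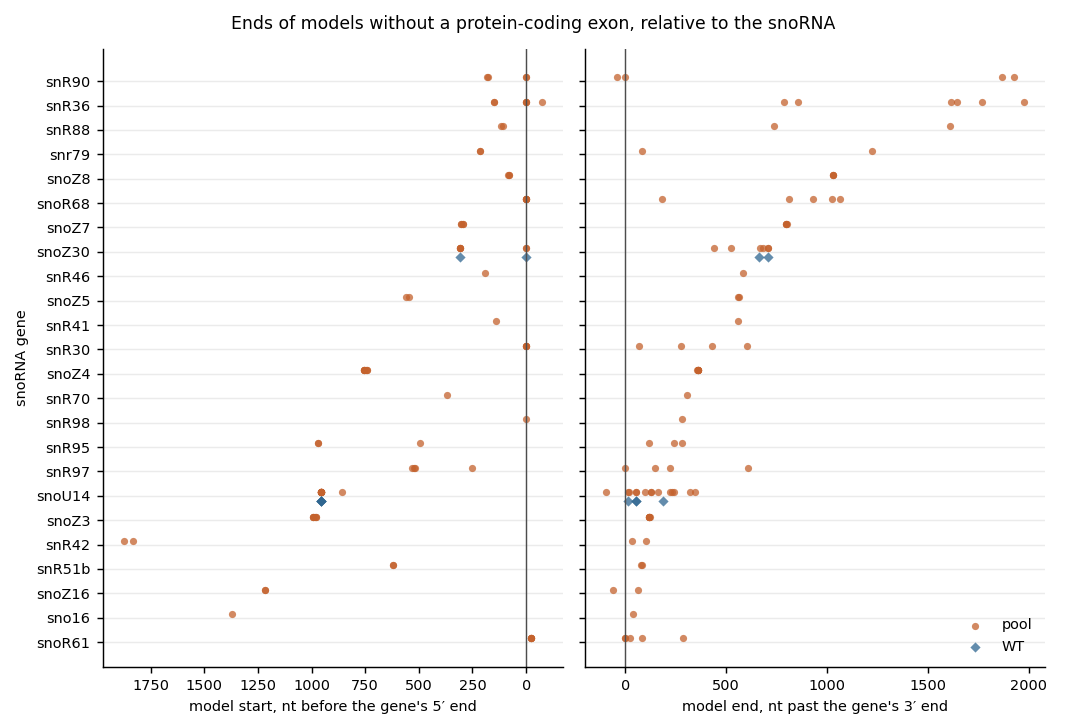
Starts (left) and ends (right) of models without a coding exon relative to each snoRNA they touch, in nt, pool as circles and WT as diamonds. Starts of snR30, snoR68 and snR98 lie within 2 nt of the 0 line, whereas ends are spread to 1977 nt past the gene, and WT points occur for snoU14 and snoZ30 alone.

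The 20 genome bases after each model end were read for A stretches, on which oligo(dT) can prime inside an RNA. At least 12 of them were A for 5 of 71 pool models without a coding exon (7.04%, exact 95% interval 2.33 to 15.7) and for 0 of 6 WT models (interval up to 45.9), against 13.6% of models of coding genes in the pool and 13.1% in WT. The hexamer AATAAA stood in the last 40 nt of 10 of the 71 pool models (14.1%) and 0 of 6 WT models, against 11.6% and 12.7% of models of coding genes.

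Several snoRNAs outside introns were carried by the 3′ ends of coding genes. sno52 lies 123 nt past the annotated end of *mcp60*, and 17 of 48 *mcp60* models in the pool and 9 of 31 in WT reached it, of which 15 and 7 covered it. Their ends lay from 45 nt inside the gene to 649 nt past it in the pool and to 485 nt past it in WT. snR101, an H/ACA snoRNA 331 nt past *pop6*, a subunit gene of RNase P and MRP, was covered in 10 of 12 *pop6* models in the pool and in 3 of 3 in WT. snR33 lies 43 nt past *gfa1*, which codes for the first enzyme of hexosamine synthesis, and was covered in 6 of 26 models in the pool and 3 of 15 in WT. snR94 was reached by 5 of 15 *skb5* models in the pool and 3 of 8 in WT.

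Other members of this kind were seen in the pool alone. SPNCRNA.1709, the guide RNA for U2 snRNA, lies 31 nt past *rpc10*, a gene for a shared RNA polymerase subunit, and was covered in 5 of its 6 pool models, while *rpc10* had 0 models in WT. snR93 lies 84 nt past *rpl29* and was covered in 3 of 5 pool models, and *rpl29* too had 0 models in WT. snR91 was covered in 1 of 12 *mpa1* models and snR88 in 1 of 3 *tvp15* models in the pool, against 0 of 6 and 0 of 1 in WT. Where the coding gene had few or no WT models, the absence of the snoRNA in WT cannot be told apart from the absence of its host. Of the remaining members seen in the pool alone without a coding exon, snR97, snR95 and snR42 lay in transcripts that overlap annotated lncRNAs, and snoZ16 in 2 models that begin 1215 nt upstream and run over *mrp1*, the RNA of RNase MRP. sno16 had 1 model of this kind, snr79 2, snR88 2 and snR46 1. Of the 7 primary transcript entries, which contain some of the snoRNAs above, 6 had a model in the pool and 1 in WT, SPNCRNA.1483 around snoZ30 with 6 models in the pool and 2 in WT.

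The HomolD box, CAGTCACA or its reverse complement TGTGACTG, is the core promoter element of ribosomal protein genes in fission yeast. It stood within 150 nt before 4 of 25 start places of models without a coding exon (16%), starts within 50 nt being joined, against 126 of 5113 protein-coding genes (2.46%) and 83 of 130 genes for cytoplasmic ribosomal proteins (63.8%). The 4 starts belonged to the snR41, snR70 and snR51b transcript, snR46, snoR61 and the upstream start of snR90, and the box ended 42, 39, 39 and 47 nt before the start. Both strands were searched, and a match is no proof of a site. The HomolE box, another element of these promoters, stood before 1 of the 25 start places, that of snr79, and before 1.15% of protein-coding genes. The 70 nt before each start and its first 10 nt are given, with the box and the start base in capitals.
snR41 transcript, chrI:1199957-1200036, plus strand: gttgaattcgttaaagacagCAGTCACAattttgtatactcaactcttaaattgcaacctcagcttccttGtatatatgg
snR46 transcript, chrIII:1718269-1718348, minus strand: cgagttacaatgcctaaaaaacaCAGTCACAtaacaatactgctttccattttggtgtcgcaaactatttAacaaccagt
snoR61 transcript, chrII:3874874-3874953, minus strand: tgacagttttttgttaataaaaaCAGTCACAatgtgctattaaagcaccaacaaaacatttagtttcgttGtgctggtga
snR90 upstream start, chrI:4937567-4937646, minus strand: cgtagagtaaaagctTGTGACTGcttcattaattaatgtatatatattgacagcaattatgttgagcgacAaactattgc

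In the pool 26 of 72 members (36.1%) had an opposite-strand model over them and in WT 14 (19.4%), against 86% and 63% of the other genes, with gene length not matched. Among tRNA genes, 6.43% had an opposite-strand model in the pool and 0.585% in WT, so the members lay between the tRNA genes and all other genes. snR96 had 0 models on its own strand and 16 opposite-strand models in the pool, against 9 in WT, and snoR02 likewise had 0 on its own strand and 10 opposite-strand models in the pool, against 5 in WT.

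Shared models were matched by ends within 20 nt and junctions within 10 nt. Of the 305 pool models over members 80 (26.2%) had a WT partner, against 21.6% of all pool models, and 77 of 104 WT models (74%) had a pool partner, against 56.2% of all WT models. The genes that make and mature these RNAs were listed in 6 groups of 60 genes in all. Of these 59 had a model in the pool and 51 in WT, against 98.9% and 91.6% of all protein-coding genes. The 4 box C/D proteins (*fib1*, *nop56*, *nop58*, *snu13*) all had models in the pool, with 25, 14, 27 and 5, and in WT *snu13* had 0 beside 8, 10 and 20 for the others. The 4 H/ACA proteins all had models in the pool, and in WT *nop10* had 0 while *cbf5*, the pseudouridine synthase, had 15 in the pool and 15 in WT. The 18 genes of 3′ end formation and nuclear decay all had models in both libraries, with *pab2* at 19 in the pool and 5 in WT and *rrp6*, the exosome nuclease, at 8 and 5. Among the 14 snRNP core and Lsm genes 13 had a model in the pool and 9 in WT, and *lsm6* had 0 in both. All 4 assembly genes had models in both libraries, and the 16 snRNP-specific genes had them in 16 cases in the pool and 14 in WT.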

How the data were processed

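Total RNA from the 2 samples was sequenced as PacBio Iso-Seq libraries by the authors, who clustered HiFi reads (Iso-Seq4), aligned the isoforms to the genome (minimap2 2.24, splice mode) and reduced them to models in TAMA Collapse, where 5′ ends and splice junctions up to 100 nt apart can be joined. Cap selection was not assumed, so a shorter model that shares the 3′ end of a longer one is joined to it. The deposited files give the start, end, strand and exons of each model per library, before the libraries were merged. The deposited score is 40 on every model and was not used. The labels' processing notes name the build ASM294v2. The models were read with ASM294v3, on which 89.7% of the distinct introns in the pool and 97.2% in WT began with GT and ended with AG (0.187% and 0.145% after a shift of 10 nt) and 0 models passed a chromosome end. All coordinates are 1-based on ASM294v3, and all sequences were read from that RefSeq genome.

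From these positions the class of each model was computed in Python (3.11.15). Quartiles came from NumPy (2.4.6), intervals from SciPy (1.17.1) and figures from Matplotlib (3.10.9). Members counted as covered when every annotated exon base lay in exons of the model. Model gaps over 2000 nt and annotated introns under 20 nt were set apart. Extension was counted from 10 nt. Members and lists were chosen with earlier results of these data known. Named were every snRNA, every snoRNA in an intron, the 5 snoRNAs with most covering models (6 with ties: sno52, snoU14, snoR38, SPNCRNA.498, snR101, snoR58), those covered in WT without a coding exon, the 5 with the largest 3′ extension, and others chosen after their values were seen. Exact Clopper-Pearson 95% intervals were used. On simulated data, 600 planted models over 69 single-exon members were all assigned to their class and ends. The planted models were simple and made from the gene coordinates themselves. Their recovery checks the code and says nothing about how accurate the deposited models are. Depth is unknown, so no precision beyond counting error is given. Alternatives covered overlap, coverage, extension, A-rich ends and matching tolerance.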

Additional observations from a re-analysis of the deposited data

How the results depend on the processing

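Of 28 alternatives, 21 kept their value within 1.5 times for counts or within the 95% interval for shares. Counting only models without a coding exon, 30 members had a model in the pool and 3 in WT, in place of 53 and 20. Counting only models found in both libraries left 20 members in the pool and 20 in WT. Members with exons in a model without a coding exon were also counted once each by the median, primary transcripts left aside. Of these, 79.2% in the pool and 100% in WT (snoU14 and snoZ30 alone) were extended at the 5′ end, in place of 67.6% and 83.3% of models. Each member was then measured from its own start, also inside a cluster, while each model had been measured from its first member. The 2 kinds of share thus differ in measure as well as in weight. With ends matched within 100 nt, 44.9% of pool models over members had a WT partner and 90.4% of WT models a pool partner, in place of 26.2% and 74%. Read numbers are absent and the libraries differ in size, so a member without a model in WT was not detected at this depth, and the cause of differences between the libraries was not tested. No paired analysis was possible because each condition has 1 library.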
